A study of Arabidopsis thaliana with 6 samples.

Results

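Lipid-transfer superfamily protein genes of Arabidopsis thaliana are described here in plants that overexpress PCO1 (plant cysteine oxidase 1) and in wild type, both short of oxygen. The set holds 10 genes. AT1G62500, AT4G22490 and AT5G01870 were chosen because their signal was lower in 35S:PCO1 in these same arrays, and 7 more were added because they encode lipid-transfer or hybrid proline-rich proteins. AT4G22470, AT2G10940 and AT2G45180 were the added genes with a probe set of their own. AT3G22120 (CWLP, a cell wall-plasma membrane linker protein), AT1G12090 (ELP, an extensin-like protein), AT4G12470 (AZI1, azelaic acid induced 1) and AT4G12480 (EARLI1, early Arabidopsis aluminum induced 1) were paired with no single-gene probe set in the annotation used here and were not analysed here. The 6 measured genes stand among 13355 genes that have such a probe set. Where a gene had several, the one with the highest mean over all arrays was taken.

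Expression was measured on 6 Affymetrix Arabidopsis Genome arrays, 3 of 35S:PCO1 and 3 of wild type. In 35S:PCO1 the PCO1 gene is driven by the constitutive 35S promoter of cauliflower mosaic virus. Both genotypes were grown in soil in short days and held for 4 h at 5% oxygen in darkness, so the comparison is between genotypes under hypoxia and holds no plants in normal air. The labels disagree on the tissue, which is a whole rosette or the whole plant, and on the age, which is 4 or 5 weeks. Neither the source of the replicates (different plants, pools or 1 batch of RNA) nor the number of transgenic lines behind 35S:PCO1 is stated, so p-values measure only the spread between these samples.

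Lipid-transfer proteins are small secreted proteins whose conserved cysteines, joined by disulfide bonds, fold helices around a hydrophobic cavity that can hold a lipid. In plants the superfamily is known for carrying lipids to the cuticle of the epidermis, for roles in the cell wall, and for defence. Hybrid proline-rich proteins join a proline-rich stretch, of a kind found in wall proteins, to a domain with the same cysteine pattern. AZI1 and EARLI1 are hybrid proline-rich proteins, and AZI1 takes part in priming of systemic immunity. PCO1 belongs to the enzymes that use oxygen to oxidise N-terminal cysteines of the group VII ethylene response factors; these activators of hypoxia genes are then degraded. The question addressed is how far the decrease of AT1G62500, AT4G22490 and AT5G01870 in 35S:PCO1 extends through their family.

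The values are RMA (robust multi-array average) signals on the log2 scale as deposited, so a difference of 1 is a 2-fold change. The arrays had medians of 5.86 to 5.91 and minima of 2.73 to 2.81. Arrays correlated with each other at 0.994 to 0.999 across probe sets. The 4 leaf markers that could be measured, of 15 listed, had mean signals of 11.6 to 13.3, which cannot tell a rosette from a whole plant. PCO1 itself was not analysed here, so the transgene gave no check of the labels. Wild type replicates 2 and 3 stood apart from the other arrays. The first principal component, with 34.1% of the variance, placed wild type replicate 2 at 18.8 and the next array on that side at 6.13. The second, with 30.6%, placed wild type replicate 3 at -17.4 and the next on that side at -4.56. Results that rest on these arrays are given below with and without them.

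AT1G62500, AT4G22490 and AT5G01870 had less signal on every 35S:PCO1 array than on any wild-type array. AT1G62500 read 5.60, 5.48 and 5.61 in 35S:PCO1 replicates 1, 2 and 3, against 7.01, 6.89 and 6.86 in wild type. The replicates of either genotype lay close together, and the lowest wild-type value was 1.25 above the highest 35S:PCO1 value. The means were 5.56 ± 0.068 in 35S:PCO1 and 6.92 ± 0.080 in wild type (SD, n = 3 each). The log2 change (35S:PCO1 minus wild type here and below) was -1.36 (SE 0.067), or 2.56-fold lower. These are bulk samples, in which fewer cells that express a gene and less of its RNA per cell cannot be told apart.

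AT4G22490 had the lowest log2 change of the family, and its wild-type arrays were the most spread of the 3 genes. Its signal was 6.02, 6.40 and 6.24 in 35S:PCO1, against 7.97, 8.12 and 7.35 in wild type. Wild type replicate 3 was the low array of its group and still lay 0.95 above the highest 35S:PCO1 array. The means were 6.22 ± 0.19 in 35S:PCO1 and 7.81 ± 0.41 in wild type (SD, n = 3 each), a log2 change of -1.59 (SE 0.19), or 3.02-fold lower. Without wild type replicate 3 the log2 change was -1.83, and without wild type replicate 2 it was -1.44.

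AT5G01870 read 4.94, 4.85 and 5.01 in 35S:PCO1, against 6.03, 6.40 and 5.88 in wild type. The 35S:PCO1 arrays lay close together near the lower part of the scale, where RMA compresses differences, and the gap to the lowest wild-type array was 0.87. The means were 4.93 ± 0.080 in 35S:PCO1 and 6.10 ± 0.26 in wild type (SD, n = 3 each). The log2 change was -1.17 (SE 0.12), or 2.25-fold lower. Wild type replicate 3 was the lowest wild-type array in all 3 of these genes, while the highest was replicate 2 in AT4G22490 and AT5G01870 and replicate 1 in AT1G62500.

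Ordered by log2 change from the lowest, AT4G22490 had rank 5, AT1G62500 rank 9 and AT5G01870 rank 11 among the 13355 genes. At an adjusted p under 0.05 in limma, the threshold used to call a gene, 3 of the 6 measured members were called lower and 0 higher, beside 0.193% of all 22746 tested probe sets called lower and 0.0703% higher. Of the named genes, 0.15% were called lower and 0.0524% higher. These 3 were chosen by that call, so nothing is read from the count. It was 1, with only AT1G62500 left, when either 35S:PCO1 replicate 1 or wild type replicate 1 was left out. It was 2 without 35S:PCO1 replicate 3, where AT4G22490 missed the threshold.

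**Figure D1:**
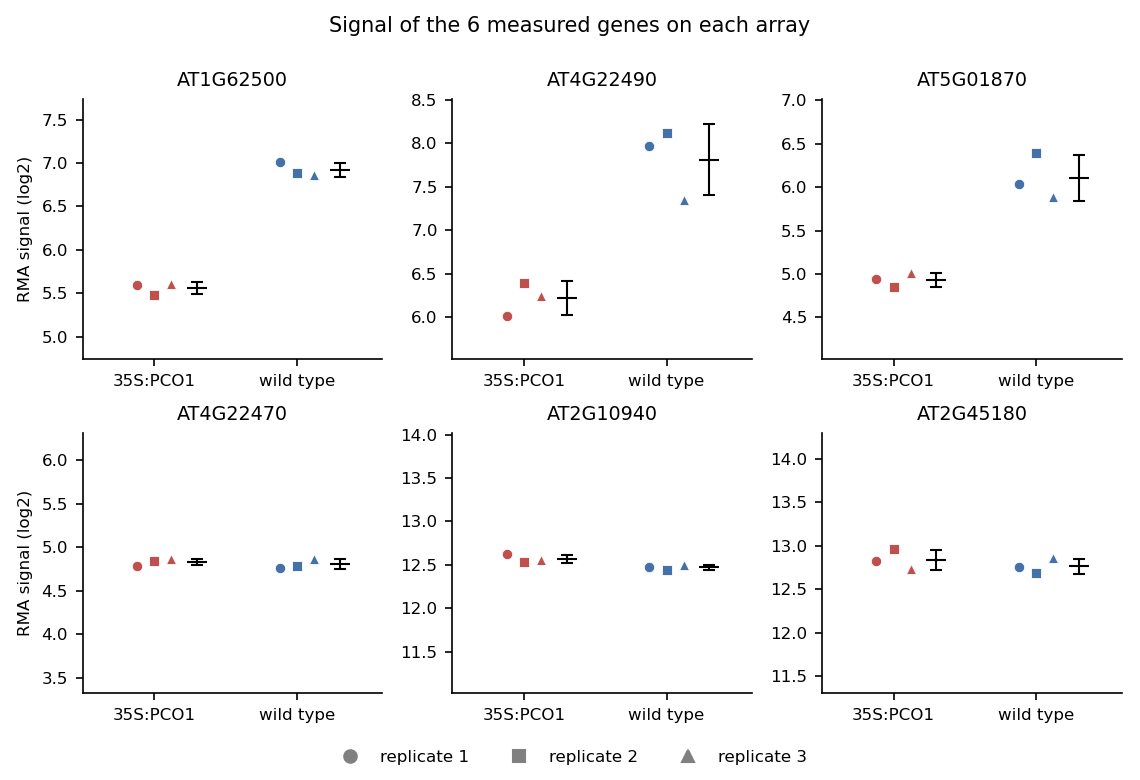
RMA signal (log2) of the 6 measured genes on each array; symbols are replicates, and the black bar is the mean ± SD of 3 arrays. Every panel spans 3 log2 units. In the upper row the 35S:PCO1 arrays lie below all wild-type arrays by 0.87 to 1.25, and in the lower row the groups differ by at most 0.10 in their means.

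The measured members that had not been chosen for a decrease were not lower in 35S:PCO1. AT2G10940 read 12.62, 12.53 and 12.55 in 35S:PCO1, against 12.47, 12.44 and 12.50 in wild type. Every 35S:PCO1 array lay above every wild-type array, by a gap of 0.032. The log2 change was 0.10 (SE 0.058, 95% interval -0.033 to 0.23), which did not pass the test (limma, adjusted p = 0.61). Separation in that direction was found in 5.11% of all named genes.

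AT2G45180 read 12.82, 12.96 and 12.73 in 35S:PCO1, against 12.75, 12.68 and 12.85 in wild type. The groups overlapped, with 35S:PCO1 replicate 2 the highest array and wild type replicate 2 the lowest. Its log2 change was 0.075 (SE 0.077, 95% interval -0.10 to 0.25, limma adjusted p = 0.80). Both genes lie near the upper end of the scale, whose highest values were 13.7 to 13.8, and whether their probes were near saturation was not tested.

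AT4G22470 read 4.79, 4.84 and 4.87 in 35S:PCO1, against 4.76, 4.79 and 4.87 in wild type. The groups overlapped almost completely, at a low signal where a decrease may not appear in full. This gave a log2 change of 0.024 (SE 0.060, 95% interval -0.11 to 0.16, limma adjusted p = 0.93). The 95% intervals of AT2G10940, AT2G45180 and AT4G22470 all lay above -0.5, a decrease well below that of any of the genes chosen for theirs. So did the intervals of 13155 of the 13355 named genes. The median log2 change over these 3 genes was 0.075, against -0.013 over all named genes; over all 6 measured members it was -0.57, a value set by the choice of the other 3. Without 35S:PCO1 replicate 2 the median of AT2G10940, AT2G45180 and AT4G22470 was 0.021.

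The wider family was then taken by locus, as lipid-transfer proteins, hybrid proline-rich proteins, lipid-transfer proteins with a membrane anchor and 2S albumins. Of 106 further loci on that list, 44 could be measured, and limma called none of them lower or higher, beside 0.202% of the named genes called in either direction. At an unadjusted p under 0.05, 1 of the 44 was lower and 2 were higher, against 6.61% and 2.97% of all named genes. Exactly 22 of the log2 changes were negative and 22 positive, with a median of -0.0030 and a range from -0.55 to 0.91. Changes smaller than 0.2 in size made up 36 of the 44, or 81.8%, against 93.1% of all named genes. The mean signal of 26 of the 44 was under 5, in the compressed part of the scale. Among the 18 with a mean signal of 5 or more, 11 changes (61.1%) were smaller than 0.2, against 89.4% of the named genes at that signal. Of these 18 changes, 8 were negative and 10 positive, with a median of 0.061. At that signal 61.0% of the named genes had a negative change, and their median was -0.029.

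The intervals of the other family genes bound how large a decrease could be, and mainly so in the brighter ones. In 43 of the 44 genes the 95% interval of the log2 change lay above -1, the exception being AT3G18280. It lay above -0.5 in 41, the exceptions being AT3G18280, AT5G55450 and AT5G05960. Of all 13355 named genes, it lay above -1 in 13329 and above -0.5 in 13155, in each case a larger share than in the family. In the 26 genes with a mean signal under 5, a decrease of the size seen in the 3 chosen genes may not appear in full. No background level was estimated, so how much of it could appear in each gene was not tested. Among the 18 with a mean signal of 5 or more, a limit set after seeing the data, the interval lay above -1 in 17 and above -0.5 in 15. Of the 7684 named genes at that signal, it lay above -1 in 7658 and above -0.5 in 7499, again larger shares. The groups were fully separated in 2 genes with 35S:PCO1 lower (AT4G08530 and AT5G62080, by gaps of 0.0034 and 0.013) and in 2 with 35S:PCO1 higher (AT4G12490 and AT1G62510, by gaps of 0.11 and 0.002). That is 4.55% in either direction, against 10.4% of all named genes for lower and 5.11% for higher. Next to AT5G01870, the chosen gene with the smallest decrease at -1.17, the closest value outside was that of AT3G18280 at -0.55. The 3 genes were chosen for their decrease in these same arrays, so nothing is read from that gap.

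**Figure D2:**
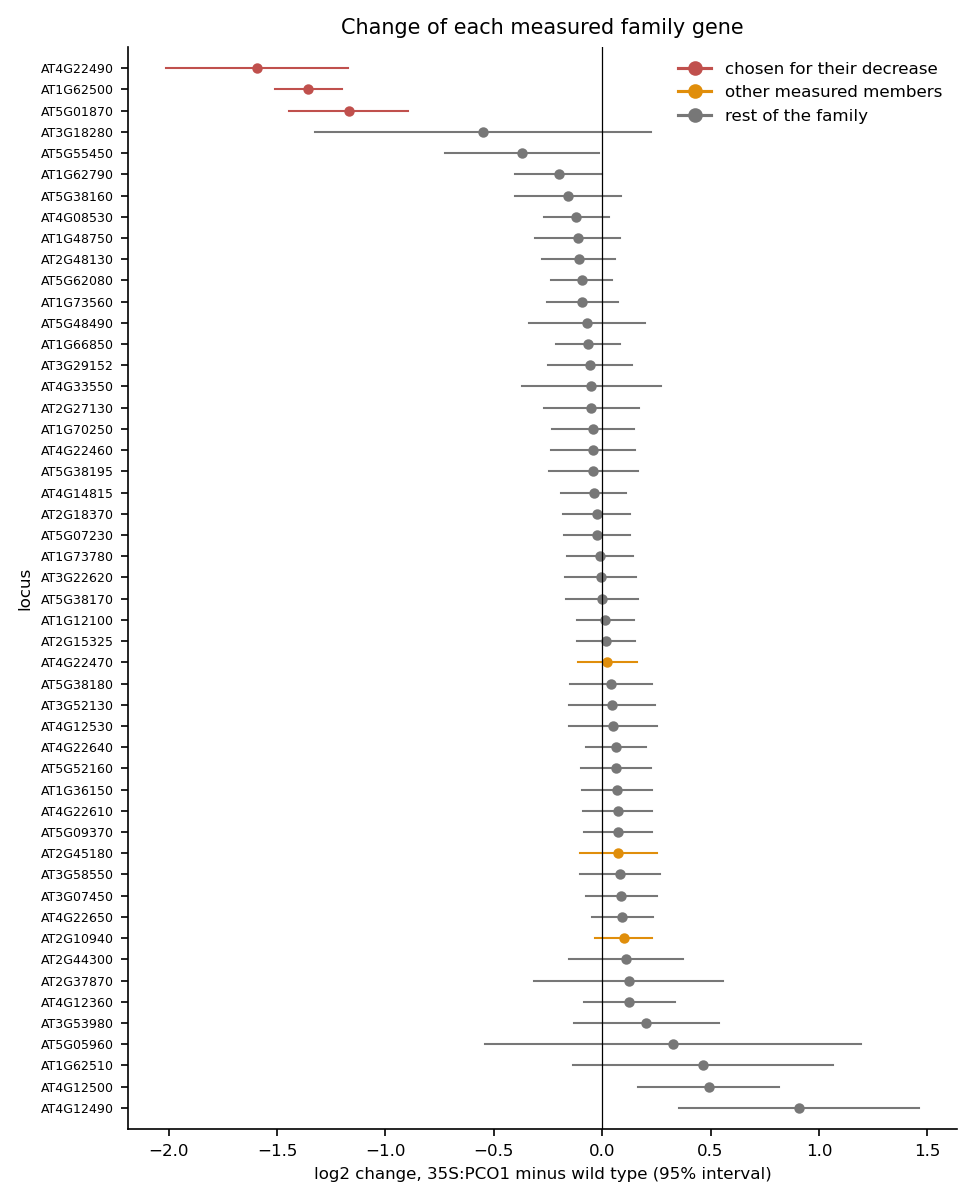
Log2 change, 35S:PCO1 minus wild type, (point) with its 95% interval from limma (line) for the 50 measured family genes, one per row, ordered by change. AT4G22490, AT1G62500 and AT5G01870, chosen for their decrease in these same arrays, lie at -1.59 to -1.17. The other 47 rows run from -0.55 to 0.91.

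The lowest changes among the other family genes depended on single arrays. AT3G18280 read 7.09, 6.42 and 7.70 in 35S:PCO1, against 7.74, 8.13 and 7.0 in wild type. The groups overlapped, and both had wide spread, with an SD of 0.64 in 35S:PCO1 and 0.57 in wild type. Its log2 change was -0.55 (SE 0.34, limma adjusted p = 0.63), and with 1 array left out it ranged from -0.87 to -0.22. AT5G55450 read 7.52, 7.43 and 7.66 in 35S:PCO1, against 8.04, 8.17 and 7.50 in wild type. Here wild type replicate 3 lay among the 35S:PCO1 arrays. The log2 change was -0.37 (SE 0.16, limma adjusted p = 0.46). Without wild type replicate 3 it was -0.57 (limma adjusted p = 0.052), and without wild type replicate 2 it was -0.24 (limma adjusted p = 0.59). The next in order, AT1G62790 and AT5G38160, had log2 changes of -0.20 (SE 0.089) and -0.16 (SE 0.11), and neither passed the test.

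At the other end stood AT4G12490 and AT4G12500, which belong to the same run of neighbouring genes as AZI1 and EARLI1. AT4G12490 read 7.34, 7.06 and 6.21 in 35S:PCO1, against 5.80, 5.98 and 6.11 in wild type. All 35S:PCO1 arrays lay above wild type, but replicate 3 lay 0.11 above the highest wild-type array, well below the other 35S:PCO1 arrays. The log2 change was 0.91 (SE 0.24, 1.88-fold) and did not pass the test (limma, adjusted p = 0.26). Without 35S:PCO1 replicate 3 it was 1.24 and was called (adjusted p = 0.0082), the only call of a gene among the 44 under any alternative tried; the adjusted p over the alternatives ran up to 0.74.

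AT4G12500 read 4.94, 5.21 and 4.68 in 35S:PCO1, against 4.40, 4.27 and 4.69 in wild type. The replicate 3 arrays of the genotypes met, and the other arrays were separated with 35S:PCO1 higher. AT4G12500 thus had a log2 change of 0.49 (SE 0.14, limma adjusted p = 0.30). Genes of this cluster are alike in sequence, and whether their probes also bind transcripts of AZI1 or EARLI1 was not tested. For AT4G12530, further along the cluster, the log2 change was 0.051 (SE 0.089, limma adjusted p = 0.89).

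AT1G62500 and AT4G22490 have relatives close by in gene order. Those of AT4G22490 within 2 protein-coding genes, AT4G22485 and AT4G22505, were not analysed here, and none of the measured relatives described next was called. AT1G62510 is the next protein-coding gene after AT1G62500. It read 8.36, 9.55 and 8.47 in 35S:PCO1, against 8.36, 8.31 and 8.31 in wild type. Only 35S:PCO1 replicate 2 stood out, and the other 5 arrays lay between 8.31 and 8.47. The log2 change was 0.47 (SE 0.26, limma adjusted p = 0.59), and without 35S:PCO1 replicate 2 it was 0.086.

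AT4G22470 lies 3 protein-coding genes from AT4G22490, and AT4G22460 lies 3 from AT4G22470 on its other side. AT4G22460 read 5.24, 5.23 and 5.22 in 35S:PCO1, against 5.26, 5.45 and 5.11 in wild type, so that the 35S:PCO1 values lay within the wild-type range. Its log2 change was -0.041 (SE 0.085, limma adjusted p = 0.91), beside 0.024 for AT4G22470 and -1.59 for AT4G22490. Within 2 protein-coding genes on either side of AT1G62500, AT4G22490 and AT5G01870, 5 neighbours could be measured, none beside AT4G22490. None was called, and their log2 changes ran from -0.18 to 0.47.

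**Figure D3:**
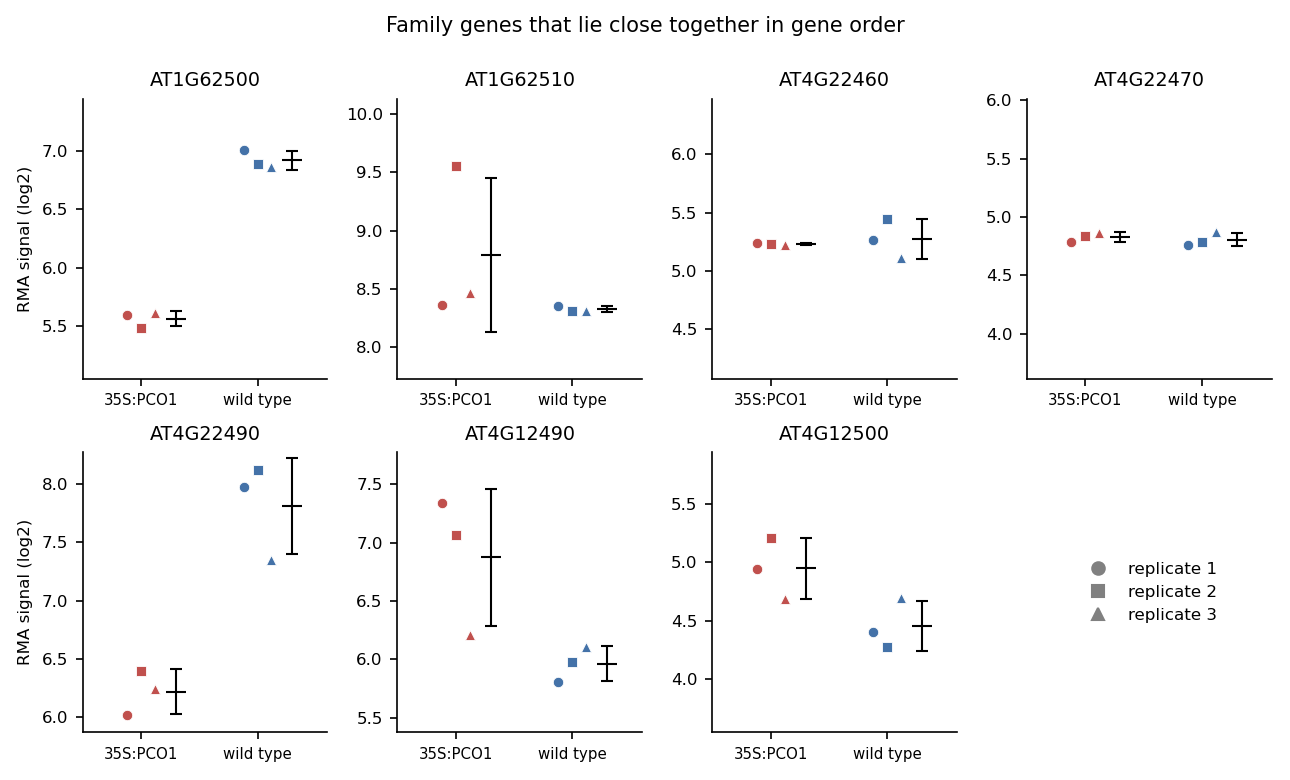
RMA signal (log2) on each array for family genes that lie near each other, AT1G62500 with AT1G62510, AT4G22460 with AT4G22470 and AT4G22490, and AT4G12490 with AT4G12500; symbols are replicates, the bar is the mean ± SD of 3 arrays, and every panel spans 2.4 log2 units. AT1G62500 and AT4G22490 have log2 changes of -1.36 and -1.59, while AT1G62510 is high on 35S:PCO1 replicate 2 alone, at 9.55.

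Wild type replicate 3 was low across much of the family. It held the lowest of the 6 values in 18 of the 44 other family genes, or 40.9%, against 21.3% of all named genes. It lay below the mean of the other wild-type arrays in 35 of 44, with a median difference of -0.13, against -0.020 over all named genes. Among the 18 family genes with a mean signal of 5 or more, it was the lowest array in 10, against 17.7% of the named genes at that signal. Wild type replicate 2 was the highest array in 16 of the 44, or 36.4%, against 25.0% of all named genes. The part of these arrays in the family's values was not tested beyond leaving them out. The median log2 change of the 44 genes was -0.049 without wild type replicate 3 and 0.040 without wild type replicate 2.

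AT5G05960 shows how 1 such array set a direction. It read 7.23, 6.33 and 7.31 in 35S:PCO1, against 6.94, 7.23 and 5.72 in wild type. Its log2 change was 0.33 (SE 0.38, limma adjusted p = 0.83), and -0.13 without wild type replicate 3. AT1G62500, AT4G22490 and AT5G01870 were chosen for their decrease and had fully separated groups, so leaving out an array could not turn their direction. Under the alternatives tried the size of their log2 changes varied, from -1.39 to -1.31, from -1.83 to -1.44 and from -1.28 to -1.02. The call varied too. The limma adjusted p ran up to 0.0051 for AT1G62500, 0.12 for AT4G22490 and 0.069 for AT5G01870.

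**Figure D4:**
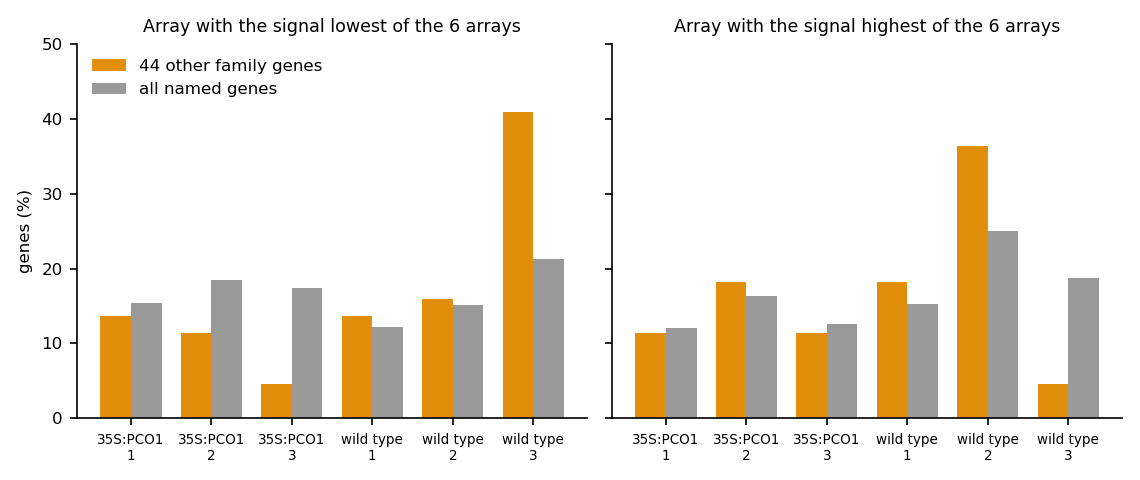
Share of genes (%) for which each array held the lowest (left) or the highest (right) of the 6 signals, for the 44 other family genes and for all 13355 named genes. Wild type replicate 3 is the lowest array in 40.9% of the family genes and 21.3% of all named genes.

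**Figure D5:**
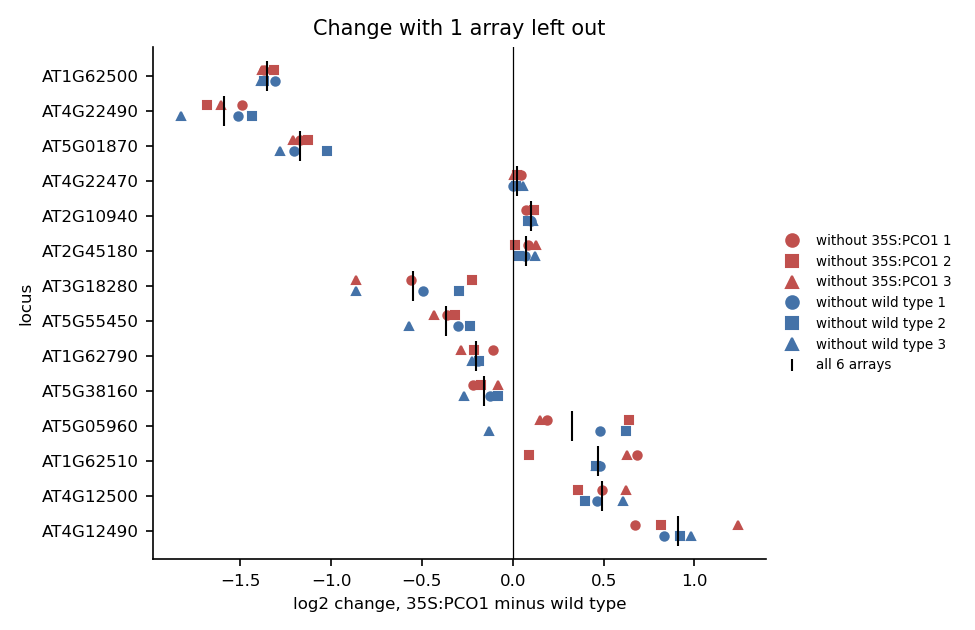
Log2 change, 35S:PCO1 minus wild type, with all 6 arrays (black tick) and with 1 array left out (coloured symbols) for the measured members and the 8 family genes at the ends of the order. AT1G62500 stays within -1.39 to -1.31, AT4G12490 runs from 0.67 to 1.24, and AT5G05960 crosses 0 without wild type replicate 3.

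Genes of the processes in which the family takes part were matched in small numbers, so little can be said of them. Of 40 genes for other wall proteins (extensins, arabinogalactan proteins, expansins), 7 were measured, with a median log2 change of 0.028 and none called. Those measured were EXPA4, EXPA8, EXPA15, HRGP1, AT1G23720, AT3G28550 and AT3G54580, and none carries the name of an arabinogalactan protein. Whether the probe sets of AT1G23720 and HRGP1 also bind other transcripts was not tested. EXPA8, an expansin that loosens cell walls, had the largest change in size. It read 9.93, 9.93 and 9.76 in 35S:PCO1, against 10.07, 10.02 and 10.19 in wild type, a log2 change of -0.22 (SE 0.074, limma adjusted p = 0.36). For EXPA15 it was 0.11 (SE 0.10, limma adjusted p = 0.77). Of 33 cuticle genes only the wax ester synthase gene WSD1 was measured, and its log2 change was 0.067 (SE 0.060, limma adjusted p = 0.76). Of 20 genes of systemic immunity 2 were measured, AT5G52810 with -0.058 (SE 0.075, adjusted p = 0.85) and UGT76B1 with -0.022 (SE 0.055, adjusted p = 0.93). None of these 10 genes was called, beside 0.202% of the named genes. EXPA8 was the 1 lower gene among them with an unadjusted p under 0.05, a mark that 6.61% of the named genes reached in that direction.

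Markers of the epidermis, where many lipid-transfer proteins are made, and of roots were compared beside these values. The 3 measured of 16 epidermal and guard cell markers were FMA, SPCH and AT1G22690, which do not cover the epidermis as a whole. All 3 had negative log2 changes, from -0.40 to -0.017, and mean signals of 4.99 to 8.64. None was called, beside 0.15% of the named genes called lower. Of all named genes, 55.9% had a negative change. AT1G22690 had the lowest change of the 3 and read 8.43, 8.50 and 8.39 in 35S:PCO1, against 8.78, 8.74 and 9.00 in wild type. Its groups did not overlap (log2 change -0.40, SE 0.080, limma adjusted p = 0.13). Separation in that direction was found in 10.4% of all named genes. The 3 measured of 12 root markers ran from -0.18 to -0.084, with mean signals of 5.00 to 6.98, and none was called. Their part in the lower signal of AT1G62500, AT4G22490 and AT5G01870 was not tested. Markers of flowers and seeds were not analysed here.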

How the data were processed

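The deposited values are log2 signals that the authors made with RMA, per the submitters' processing notes; software, version and probe definition are not given in the sources used here. Of 22810 probe sets, 64 controls were left out. Of the 22746 tested, 13513 name 1 gene, 503 several and 8730 are not listed in the platform annotation used, with symbols brought up to date from the TAIR10.1 gene table, matched on gene number. That table was also used for gene order; it carries no descriptions, so the wider family was listed by locus from background knowledge.

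Genotypes, taken from sample titles, were compared in R 4.3.3 with limma 3.58.1 (lmFit, then eBayes), 2-sided and without covariates; p-values were adjusted by Benjamini-Hochberg across the whole set of tested probe sets, and the procedure was tested on simulated data. Lists were described by counts and medians. The members and lists were chosen with earlier results of these data known. Genes named were the members; called loci of the wider family, or the 4 highest and 4 lowest changes where none was called; and up to 4 called genes of each pathway list, or the 2 with the largest change. AT4G08530, AT5G62080, AT4G12530, AT4G22460 and AT1G22690 were named after their values were seen.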

Additional observations from a re-analysis of the deposited data

How the results depend on the processing

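With 3 arrays a group, the number of arrays limits the precision. Leaving out 1 array moved the count of called probe sets from 60 to between 23 and 60, that of members called lower from 3 to between 1 and 3, and that of the 44 other family genes from 0 to between 0 and 1. With the replicate number as a block, 26 probe sets were called. AT5G01870 then missed the threshold (limma adjusted p = 0.069), which left 2 members called. Deviations of same-numbered arrays from their group means correlated at -0.059, -0.22 and -0.26. Between arrays of unlike number the correlations ran from -0.036 to 0.23. With 3 arrays a group these values depend on each other, so they cannot show whether the numbers pair the samples. Array weights gave 255 called probe sets. A filter at the 40th percentile of mean signal removed AT4G22470, and the median of the 5 members left was -1.17. Over arrays left out, the median log2 change ran from -0.61 to -0.50 for the 6 members and from 0.021 to 0.11 for the 3 not chosen for a decrease. AT5G05960 ran from -0.13, without wild type replicate 3, to 0.64. Of the 179 values of single genes under an alternative, 171 kept direction and call, 6 lost the call, 1 gained it and 1 turned. Only the 3 chosen genes had a call to lose, each under 13 alternatives, and all 6 losses were in AT4G22490 and AT5G01870. Alternatives for the family genes outside the members, and the median of the 44, were added after seeing the data. The cause of these differences was not tested.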

Other observations

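By Pearson correlation over the 6 arrays, the named genes most like AT1G62500 were AT5G16380 (0.994), AT4G26910 (0.992), MAB1 (0.991) and AT2G43760 (0.990). None is on the family list, and their log2 changes were smaller, from -0.33 to -0.18. The points are 6 arrays in 2 groups, so the gap between genotypes sets most of these values. For the mean of AT2G10940, AT2G45180 and AT4G22470 the most alike were AT2G48030 (0.995), AT3G07670 (0.991), the plastid gene rps14 (0.989) and AT5G62130 (0.985), with log2 changes from 0.054 to 0.40.

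Another 3 probe sets name several genes each, with family genes among them, and entered no comparison. The log2 change was -0.065 (SE 0.075) for AT4G15165 with AT4G15160, and 0.063 (SE 0.10) for AT5G46900 with AT5G46890. For AT4G12510 with AT4G12520, numbered between AT4G12500 and AT4G12530, it was -0.057 (SE 0.11). That probe set read 7.06, 7.35 and 6.95 in 35S:PCO1, against 7.13, 7.08 and 7.33 in wild type. In all 3 probe sets the groups overlapped.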
